A study of Mus musculus with 2 samples.

Results

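The histone genes of the mouse heart were described in 2 RNA-seq libraries prepared from RNA selected for poly(A) tails. The set comprised every protein-coding gene whose GENCODE M21 symbol names a histone cluster (Hist1h, Hist2h, Hist3h or Hist4h, called clustered genes here). It also held 10 genes of histone variants without such a symbol (H2afx, H2afy, H2afy2, H2afz, H2afv, H2afj, H3f3a, H3f3b, H1f0 and H1fx). These were 77 genes, 67 clustered and 10 variant, of which 64 clustered and 10 variant genes had a row in the gene tables of both libraries, among 21474 protein-coding genes there. Hist1h2bh, Hist1h2bm and Hist2h2bb had no row with their identifier and were not analysed here.

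Histones are the proteins around which DNA is wound. The messenger RNAs of the clustered genes are made mainly while a cell copies its DNA, and they end in a short stem-loop that is bound by SLBP and cleaved with the help of the U7 small nuclear ribonucleoprotein, in place of a poly(A) tail. Variant histones are made throughout the cell cycle from ordinary polyadenylated messenger RNAs, many of them from genes with introns, and they take the place of clustered forms in the chromatin of cells that no longer divide. Most cardiomyocytes of the adult heart are such cells. Because the RNA was selected for poly(A) tails, levels of clustered genes in these libraries are not levels in total RNA.

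The 2 libraries form 1 group of replicates. They were made at Cold Spring Harbor Laboratory for ENCODE from heart tissue of C57BL/6J mice, an inbred laboratory strain, as adults of 8 weeks, with no genetic change or treatment stated. RNA longer than 200 nucleotides was sequenced as stranded pairs of 76-nucleotide reads. The labels describe tissue pooled from littermates of both sexes and give the libraries separate biosamples but 1 donor record. The counts of sex-linked transcripts go against that pooling: Xist, expressed from an inactive X chromosome, reached 13725 counts in replicate 1 but 13 in replicate 2, whereas 4 genes of the Y chromosome summed to 0 counts in replicate 1 and 2916 in replicate 2. Technical spread and differences between animals cannot be told apart here.

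Replicate 1 held 57464573 and replicate 2 held 62912053 estimated counts, 98.3% of each on genes. Heart muscle was present in both, with 8 of 8 heart muscle markers detected. None was called different between the libraries by the rule given below, which asks for a fold of at least 2. Of the 8, 4 had ratios above and 4 below those of equal levels, and Tnni3 was 1.90-fold lower in replicate 1. The libraries differed in other cell types. By the same rule all 9 airway markers and all 8 red cell markers were called lower in replicate 1. So were 6 of 10 leukocyte markers and 6 of 7 adipocyte markers, against 8.21% of all tested genes. Summed levels in replicates 1 and 2 were 1.23 and 2685 TPM for the airway list and 7599 and 94944 TPM for the red cell list. They were 147 and 303 TPM for the leukocyte list and 100.5 and 417 TPM for the adipocyte list. Of the airway markers, Scgb3a2 and Muc5b were at 0 in replicate 1. In bulk tissue, fewer cells of a type and less RNA per cell cannot be told apart.

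The 3′ ends of the histone transcripts, read from the GENCODE M21 transcript sequences on GRCm38, are shown first because most clustered genes carry a stem-loop there and most variants do not. Each window is the sense strand, 5′ to 3′, in DNA letters, and capitals mark the stem-loop (a 6-base stem around a 4-base loop, 16 bases in all) in genes that were among the most abundant of their family, and in the variant H2afx.
Hist1h1c stem-loop, chr13:23739507-23739532, plus strand: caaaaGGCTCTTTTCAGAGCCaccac
Hist2h2aa1 stem-loop, chr3:96246027-96246052, plus strand: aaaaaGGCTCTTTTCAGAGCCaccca
Hist3h2a stem-loop, chr11:58955167-58955192, plus strand: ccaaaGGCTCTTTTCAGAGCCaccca
Hist2h3c2 stem-loop, chr3:96238480-96238505, minus strand: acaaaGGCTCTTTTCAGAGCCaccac
Hist1h4h stem-loop, chr13:23531453-23531478, plus strand: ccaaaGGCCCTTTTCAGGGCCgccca
Hist1h4c stem-loop, chr13:23698084-23698109, minus strand: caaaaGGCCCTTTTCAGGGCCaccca
Hist1h4i stem-loop, chr13:22040961-22040986, minus strand: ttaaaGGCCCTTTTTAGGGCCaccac
H2afx stem-loop, chr9:44335235-44335260, plus strand: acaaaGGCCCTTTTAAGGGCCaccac

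A stem-loop of this form was found on the sense strand of the annotated 3′ untranslated region in 46 of the 67 clustered genes. Among other protein-coding transcripts with such a region of at least 16 bases, 78 of 44270 (0.176%) had a match. The 67 include 14 genes with values, and Hist2h2bb, whose annotated region was shorter than that and could not hold a match. Among the clustered genes 26 shared the 16 bases shown for Hist1h1c, none of them an H4 gene, and 7 shared those shown for Hist1h4h, all of them H4 genes. Of the 10 variants H2afx, whose protein marks DNA breaks when phosphorylated, was the one with a match.

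The next windows show a poly(A) signal (AATAAA or ATTAAA, in capitals) in clustered genes that carry one and in 2 variants. It was searched on the sense strand in the last 50 bases of the annotated 3′ untranslated region. They are shown because a stem-loop and a downstream poly(A) signal stand in the same annotated transcript of Hist1h1c, Hist1h4h, Hist3h2a and H2afx.
Hist1h1c poly(A) signal, chr13:23740334-23740363, plus strand: atgcttctAATAAAaagcgtttagttttca
Hist1h4h poly(A) signal, chr13:23531480-23531509, plus strand: attttcttATTAAAagagcgaacatgtgtt
Hist3h2a poly(A) signal, chr11:58956789-58956818, plus strand: atatgcccAATAAAataagagtacgtgtat
Hist2h2be poly(A) signal, chr3:96223709-96223738, plus strand: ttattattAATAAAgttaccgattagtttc
H2afx poly(A) signal, chr9:44336035-44336064, plus strand: ctaattttATTAAAggatcgtttggttttg
H3f3b poly(A) signal, chr11:116021983-116022012, minus strand: gccttacaAATAAActagtaagtttggagt

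Such a signal stood in 16 of the 64 clustered genes with values and in 8 of the 10 variants. It stood in 65.3% of the other protein-coding transcripts with a 3′ untranslated region of at least 16 bases. A match is a description of the annotated end and not a measured cleavage site. For 14 of the 64 clustered genes no usable 3′ untranslated region is annotated, so no signal could be found there. Elsewhere, where no match was found, these letters were not in the window searched.

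Most clustered histone genes were near or below detection in both libraries, and the median variant was far above the median clustered gene. Levels are given as TPM, transcript abundances scaled by length and to the same sum in each library, and a gene was called detected where it reached 1 TPM in both libraries. Of the 64 clustered genes 14 (21.9%) were detected, against 9 of 10 variants and 10677 of 21474 protein-coding genes (49.7%). The median clustered gene stood at 0.245 TPM in replicate 1 and at 0.540 TPM in replicate 2, a mean of 0.393 ± 0.209 TPM (SD, n = 2). The median variant stood at 17.0 and 21.6 TPM, a mean of 19.3 ± 3.25 TPM (SD, n = 2). The medians of the 2 classes did not overlap between libraries. With 2 libraries the smallest p of an exact two-sided sign test is 0.5, and the genes of a class are not replicates, so no p is given for this contrast.

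Of the clustered genes 8 had no count in either library, namely Hist1h1t, Hist1h2aa, Hist1h2ag, Hist1h2an, Hist1h2ao, Hist1h2bl, Hist1h3h and Hist2h3c1. Hist1h1t, a linker histone, and Hist1h2aa, an H2A, are known from male germ cells. Hist1h2ba, the H2B of male germ cells, had 0 counts in replicate 1, against 1 in replicate 2. A count of 0 allows up to 3 counts, which stand for 0.0555 CPM in replicate 1 and 0.0464 in replicate 2. In all, 18 clustered genes were at 0 in at least 1 library and 14 had at most 3 counts in both. No variant was at 0. Intervals and floors cover counting error only, and not the division of reads among genes of shared sequence. The share of stretches of read length found in transcripts of no other gene was 100% for Hist1h1t and Hist1h2aa. It was 0% for Hist2h3c1, 6.55% for Hist1h3h, 6.91% for Hist1h2ao, 15.4% for Hist1h2an, 22.4% for Hist1h2ag and 27.1% for Hist1h2bl. For genes with such low shares a count of 0 is uncertain, and the part of read assignment in it was not tested.

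**Figure D1:**
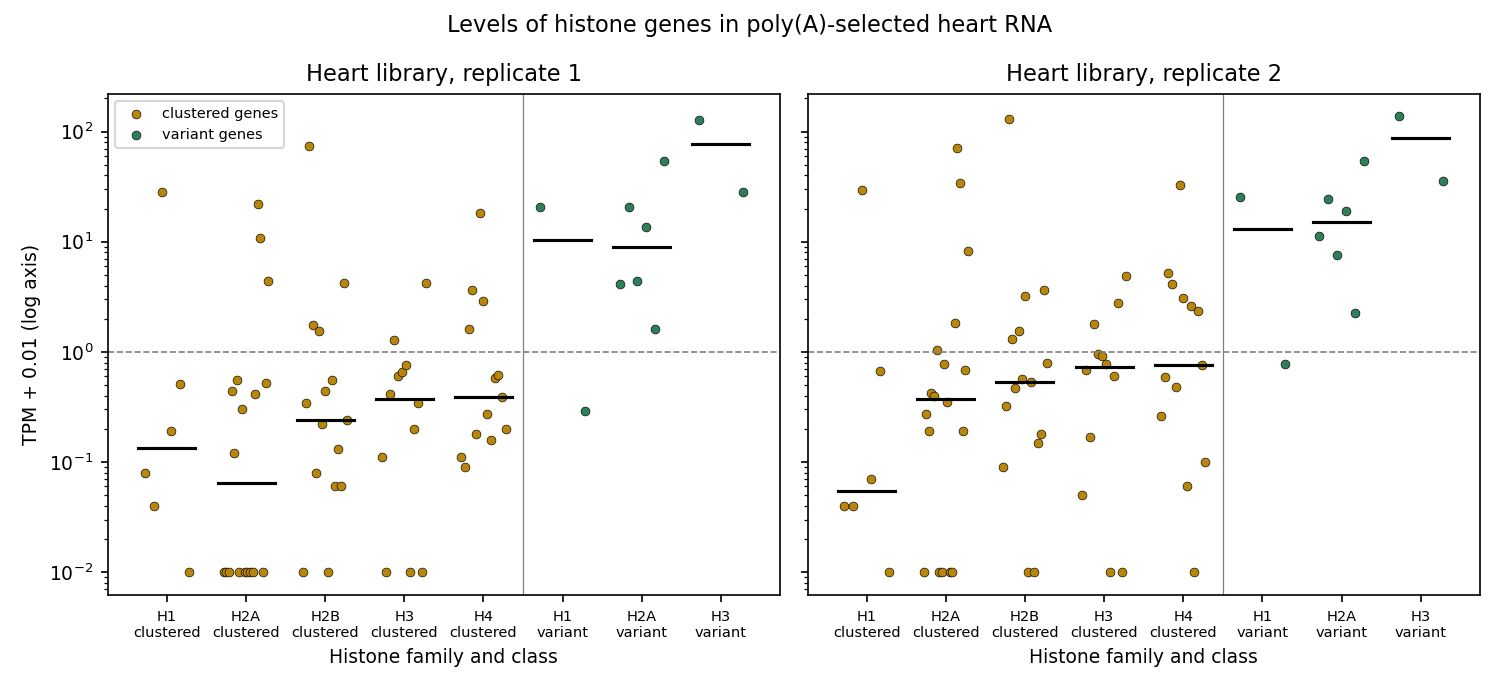
TPM plus 0.01, on a log axis, of the 64 clustered (left of the vertical line) and 10 variant histone genes by family, in replicate 1 and replicate 2. Each point is a gene, bars are medians and the dashed line is 1 TPM: 44 clustered genes lie below that line in both libraries, and 9 of 10 variants lie above it.

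The few clustered genes that were detected held most of the clustered signal. Summed over genes, clustered histones reached 189.9 TPM in replicate 1 and 357 TPM in replicate 2, and variants reached 274 and 318 TPM. Clustered genes thus made up 41.0% and 53.0% of histone TPM, a mean of 47.0 ± 8.48% (SD, n = 2). The set holds no variant H2B or H4 gene, so the choice of genes fixes the clustered share at 100% in those families. In the families with both classes, that share was 57.9% and 53.5% for H1, 28.8% and 50.1% for H2A and 5.17% and 7.26% for H3. The 5 highest clustered genes held 81.0% and 83.0% of the clustered TPM, and the 10 highest held 90.5% and 90.3%. All histone genes together were 0.0464% of TPM in replicate 1 and 0.0675% in replicate 2.

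Hist1h2bc, an H2B gene (chromosome 13, 23684199 to 23692908, plus strand, GRCm38), was the highest clustered gene. It stood at 74.6 TPM in replicate 1 and at 131 TPM in replicate 2, from 2476 and 4626 counts. It was second to H3f3a among all histone genes of the set and alone held 39.3% and 36.5% of clustered TPM. Its ratio of counts scaled by the trimmed mean of M-values (TMM), replicate 1 over replicate 2, was -0.65 on the log2 scale, a fold under 2. The clustered share of histone TPM without it was 35.6%, an alternative added once the data had been seen. The annotated transcript of Hist1h2bc has 2 exons and a 3′ untranslated region of 742 bases with no stem-loop match, unlike those of most clustered genes. The gene tables give it a length of 736 bases, against 1156 in M21, and TPM depends on that length.

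The other H2B genes were low. Hist2h2be stood at 4.18 TPM in replicate 1 and at 3.63 TPM in replicate 2. Hist1h2be stood at 1.75 and 1.31 TPM, and Hist1h2bg at 1.55 and 1.53 TPM. Hist2h2be also lacks a stem-loop match, and its transcript runs 2192 bases past the stop codon, with the poly(A) signal shown above near its end. Hist1h2be shares 496 bases of its annotated span on the same strand with Hist1h1e, so the division of reads between those genes is uncertain. Of the Hist1h2be signal 75.9% in replicate 1 and 55.9% in replicate 2 was assigned to a transcript annotated as a processed transcript and not to a coding one. In all, 4 of 15 H2B genes with values were detected, and the H2B sum was 84.2 TPM in replicate 1 and 143 TPM in replicate 2. No variant H2B gene belongs to the set.

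Among clustered H2A genes the pair Hist2h2aa1 and Hist2h2aa2 dominated. Hist2h2aa1 stood at 22.1 TPM in replicate 1 and at 70.6 TPM in replicate 2. Hist2h2aa2 stood at 10.8 and 33.8 TPM. Both were lower in replicate 1. The log2 ratio of replicate 1 over replicate 2 was -1.52 for Hist2h2aa1. It was -0.94 for Hist2h2aa1 and -0.91 for Hist2h2aa2, a fold under 2, once the median ratio of the tested genes of highest GC content was subtracted. The 2 genes lie on chromosome 3 in opposite orientation (96245497 to 96246082 on the plus strand and 96239749 to 96240276 on the minus strand). They carry the same stem-loop and flanks. Of the 76-base words of Hist2h2aa2 0%, and of those of Hist2h2aa1 11.2%, occur in transcripts of no other gene. Their separate values are therefore uncertain, and together they held 83.1% and 88.0% of clustered H2A TPM.

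Hist3h2a was the third detected clustered H2A gene, with 4.39 TPM in replicate 1 and 8.16 TPM in replicate 2. Its annotated transcript runs 1643 bases past its stem-loop to the poly(A) signal shown above. It lies within the span of Trim17 on the same strand, so reads of the 2 genes may not be fully separated. The other 15 of 18 clustered H2A genes were not detected, and the sums of the family were 39.5 TPM in replicate 1 and 119 TPM in replicate 2. Variant H2A genes summed to 97.8 and 118 TPM, and the clustered share of H2A was 28.8% in replicate 1 and 50.1% in replicate 2, the largest difference between libraries of the 3 families that hold both classes.

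Linker histones were led by Hist1h1c, which encodes histone H1.2. It stood at 27.96 TPM in replicate 1 and at 29.4 TPM in replicate 2, close to each other, with a log2 ratio of 0.10. It held 97.3% and 97.4% of clustered H1 TPM, and its transcript runs 840 bases past the stem-loop. The other 5 clustered H1 genes were not detected, the highest being Hist1h1e at 0.50 and 0.66 TPM. H1f0, the variant linker histone H1.0 that accumulates in differentiated cells, stood at 20.6 and 25.6 TPM. H1fx, the variant H1.X, stood at 0.28 TPM in replicate 1 and at 0.76 TPM in replicate 2 and was the only variant below detection in both. Clustered genes made up 57.9% of H1 TPM in replicate 1 and 53.5% in replicate 2.

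Clustered H3 genes were the lowest family relative to their variants. They summed to 8.46 TPM in replicate 1 and 13.6 TPM in replicate 2, and the H3.3 genes H3f3a and H3f3b summed to 155 and 173 TPM. The clustered share of H3 TPM was 5.17% and 7.26%. Hist2h3c2 stood at 4.18 and 4.90 TPM and Hist1h3d at 1.27 and 1.77 TPM, and the other 10 clustered H3 genes with values were not detected. H3.3 is the H3 form deposited outside of DNA replication, by HIRA and by ATRX with DAXX.

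The set holds no variant H4 gene, and 4 of 13 clustered H4 genes were detected. Hist1h4h led with 18.3 TPM in replicate 1 and 32.4 TPM in replicate 2, from 307 and 588 counts, and held 63.2% and 62.5% of H4 TPM. Hist1h4d stood at 3.65 and 4.11 TPM, Hist1h4i at 2.91 and 3.08 TPM and Hist1h4c at 1.60 and 5.14 TPM. Of these Hist1h4c was the one that differed by a fold of at least 2 between libraries. In Hist1h4h the poly(A) signal begins within the 50 bases that follow the stem-loop, as the windows above show. The family summed to 29.0 TPM in replicate 1 and 51.9 TPM in replicate 2.

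By cluster, 9 of 52 genes of the large Hist1 cluster on chromosome 13, 4 of 9 Hist2 genes on chromosome 3, 1 of 2 Hist3 genes on chromosome 11 and 0 of 1 Hist4 gene, on chromosome 6, were detected. Just inside the detection limit were Hist1h3d and Hist1h2be, whose lower values were 1.27 and 1.31 TPM. Just outside it were Hist1h3g, at 0.75 and 0.77 TPM, and Hist1h3f, at 0.65 and 0.91 TPM. A further 6 clustered genes passed 1 TPM in replicate 2 but not in replicate 1, and none did so in replicate 1 alone. These were Hist1h2bk (0.43 and 3.23 TPM), Hist2h3b (0.33 and 2.78 TPM), Hist1h4n (0.61 and 2.33 TPM), Hist1h4k (0.15 and 2.58 TPM), Hist1h2ap (0.40 and 1.83 TPM) and Hist1h2af (0.55 and 1.02 TPM). Over all clustered genes, TPM was higher in replicate 1 for 15, higher in replicate 2 for 40 and equal above 0 for 1.

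Among variants the H3.3 gene H3f3a was highest, at 127 TPM in replicate 1 and at 138 TPM in replicate 2, and H3f3b encoded the same protein at 28.5 and 35.5 TPM. H2afz, which encodes H2A.Z, stood at 53.5 and 54.0 TPM, and its close relative H2afv at 20.7 and 24.2 TPM. Of the H2afz value the coding transcript H2afz-201 held 17.1 and 17.4 TPM, below the H3f3b value in both libraries. The place of H2afz in the order below, and its part of the variant H2A sum, thus rest on other transcripts as well. The macroH2A gene H2afy, whose protein carries a large globular domain, stood at 13.5 and 19.1 TPM, and the second macroH2A gene H2afy2 at 1.61 and 2.22 TPM. H2afj, the H2A.J gene, stood at 4.09 and 11.2 TPM, and H2afx at 4.43 and 7.51 TPM. The order by mean TPM was H3f3a, H2afz, H3f3b, H1f0, H2afv, H2afy, H2afj, H2afx, H2afy2 and H1fx. Between neighbours in that order, the ranges over both libraries overlapped for H1f0 and H2afv and for H2afj and H2afx, and for no other neighbours.

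**Figure D2:**
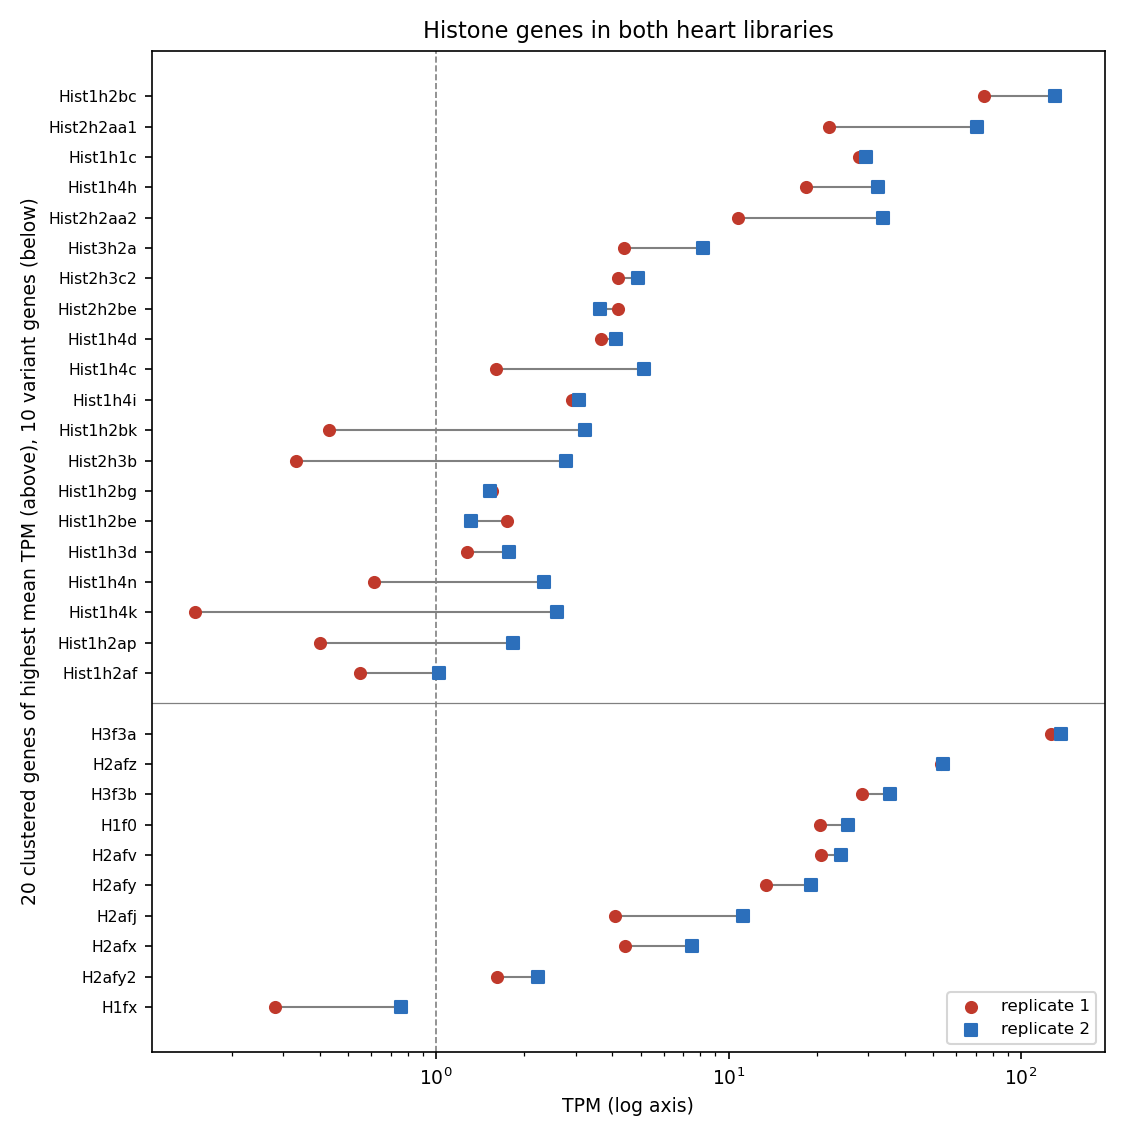
TPM on a log axis of the 20 clustered genes of highest mean TPM (above) and the 10 variants (below) in replicate 1 (circles) and replicate 2 (squares). Hist1h2bc, at 74.6 and 131 TPM, lies near H3f3a, at 127 and 138 TPM, and Hist1h4k, at 0.15 and 2.58 TPM, has the longest bar between libraries.

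The transcript tables divide the counts of a gene among its annotated transcripts, and 9 genes of the set had more than 1 transcript, 8 of them with counts in both libraries. The ninth, Hist1h2bp, had 0.78 counts in replicate 1 and 0 in replicate 2. In all 8 the same transcript led by TPM in both libraries. H3f3a-207, a transcript whose last 50 bases hold no poly(A) signal, held 73.4% of H3f3a TPM in replicate 1 and 75.8% in replicate 2. H3f3b-201 held 86.6% and 54.5%, and the processed transcript H3f3b-204 held 11.8% and 38.5%. For H2afz the short processed transcript H2afz-205, of 361 bases, led by TPM with 44.7% and 65.4%, but the coding transcript H2afz-201 held the most counts, 70.3% and 69.4%. H2afy-202 held 65.2% in replicate 1 and 52.0% in replicate 2, and the other coding transcript, H2afy-201, held 7.03% and 7.41%.

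The annotated 3′ end was compared with the level. Clustered genes with values were sorted by the distance from stem-loop to transcript end, with a limit of 100 bases that was chosen after seeing the data. Of 22 genes whose transcript runs on for more than 100 bases 9 were detected, with medians of 0.545 TPM in replicate 1 and 0.845 TPM in replicate 2. Of 22 whose transcript ends within 100 bases 3 were detected, Hist2h2aa1, Hist2h2aa2 and Hist1h4h, with medians of 0.365 and 0.515 TPM. Of 6 with a 3′ untranslated region but no match 2 were detected, Hist1h2bc and Hist2h2be, with medians of 0.225 and 1.48 TPM. None of 14 with no usable annotated 3′ untranslated region was detected, and their medians were 0 and 0.130 TPM. These kinds follow M21 ends, but some deposited models are shorter, among detected and undetected genes. Of the 9, Hist1h4d (393 bases quantified, 1138 in M21), Hist1h4c (395, 820), Hist1h2bg (477, 618) and Hist1h3d (560, 1249) are such genes. The coding transcript Hist1h2be-201, of another of the 9, was at 0.42 and 0.58 TPM. The counts of detected genes therefore describe kinds of M21 annotation and not of the transcripts quantified.

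The ranges of all 4 kinds of clustered transcript overlapped widely. Among those that end within 100 bases, Hist2h2aa1 reached 22.1 and 70.6 TPM with no poly(A) signal in the window, and among those that run on, some were at 0. The 16 clustered genes with a poly(A) signal had medians of 0.245 TPM in replicate 1 and 0.570 TPM in replicate 2, and 6 were detected. The 48 without one had medians of 0.250 and 0.540 TPM, and 8 were detected. These 48 include the 14 with no usable annotated 3′ untranslated region, where no signal could be found. With those 14 counted in, the medians of genes with and without the signal differed by less than the libraries did. Genes that were searched and had no signal were not summarised apart. The variant H2afx, with a stem-loop and a transcript that runs 822 bases past it, stood at 4.43 and 7.51 TPM, and the other 9 variants had medians of 20.6 and 24.2 TPM.

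**Figure D3:**
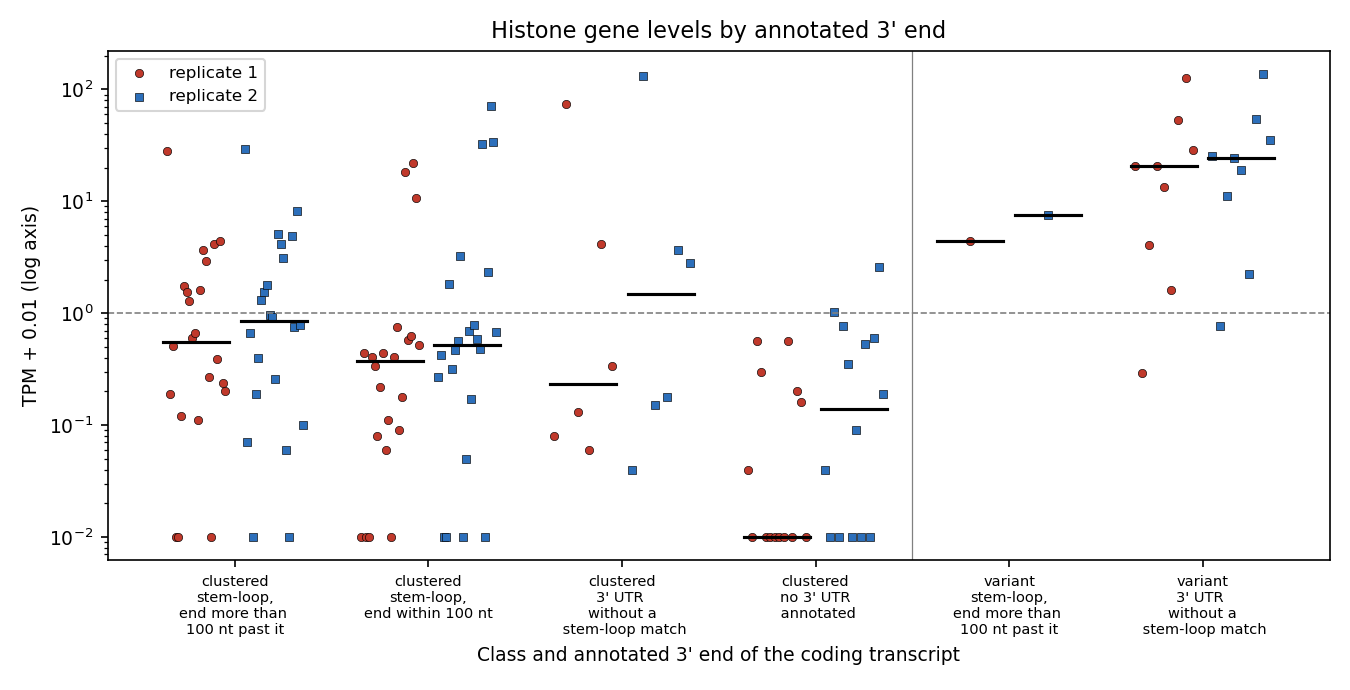
TPM plus 0.01, on a log axis, by class and annotated 3′ end, with replicate 1 as circles and replicate 2 as squares, bars for medians and a dashed line at 1 TPM. Clustered genes of each of the first 3 kinds include 1 or more at 22.1 TPM or above in replicate 1, while the 14 with no annotated 3′ untranslated region lie at or below 0.55 TPM in replicate 1 and 2.58 TPM in replicate 2.

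Annotation and sequence identity also differed among these genes. The transcript length in the tables equals that in M21 for 44 of 64 clustered genes, M21 is longer for 17 and shorter for 3. For example Hist1h4d has 393 bases in the tables and 1138 in M21. The 76-base words of a gene were pooled over its transcripts. The median clustered gene had 58.0% of them found in transcripts of no other gene, against 99.5% for the median variant. Of the clustered genes 27 were under 50% and 11 at 90% or above. The median share was 78.2% for genes whose transcript runs past the stem-loop and 44.3% for those whose transcript ends near it. For genes with a 3′ untranslated region but no match it was 47.3%, and for those with no annotated 3′ untranslated region 29.2%. It was 78.2% for the 16 genes with a poly(A) signal and 47.4% for the 48 without one, whose median levels were close. The part of unique sequence and annotated length in the differences above was not tested.

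Clustered H2A and H2B genes often lie head to head, with a shared stretch of upstream DNA between their starts. Among genes with values, 12 such pairs had starts at most 1000 bases apart, and the gaps were 175 to 305 bases. In 3 pairs the H2B gene was detected and the H2A gene was not, in 9 neither was, and in no pair was the H2A gene or both detected. The clearest contrast was Hist1h2bc, with 74.6 TPM in replicate 1 and 131 TPM in replicate 2, and its neighbour Hist1h2ac, with 0 and 0.18 TPM from 0 and 3.32 counts. Hist2h2be had 4.18 and 3.63 TPM and its neighbour Hist2h2ac 0.51 and 0.67 TPM. Hist1h2bg had 1.55 and 1.53 TPM and its neighbour Hist1h2ae 0.11 and 0.39 TPM. These comparisons are per length within each library and have no test. Hist1h2ac was quantified over 476 bases, against 2482 in M21, so reads from the rest of the M21 transcript may not have been counted for it. The part of annotated length in these contrasts was not tested.

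The stretch between Hist1h2bc and Hist1h2ac is shown because its 2 sides carried such different levels. It is the 250 bases before the start of Hist1h2ac in the RefSeq table (GRCm38.p6), read 5′ to 3′ towards Hist1h2ac, with capitals for the CCAAT box, the TATAAA box and the octamer ATTTGCAT, or their reverse complements.
Upstream of Hist1h2ac, chr13:23683960-23684209, minus strand: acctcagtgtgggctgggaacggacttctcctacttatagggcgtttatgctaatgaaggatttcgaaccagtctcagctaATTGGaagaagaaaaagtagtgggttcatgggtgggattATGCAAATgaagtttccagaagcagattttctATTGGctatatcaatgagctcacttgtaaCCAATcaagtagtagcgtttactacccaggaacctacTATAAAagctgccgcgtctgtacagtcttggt

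The RefSeq table held upstream sequence for 62 clustered and 9 variant genes. CCAAT, bound by the NF-Y factor, stood on either strand in 51 of the clustered genes (82.3%) and 5 of the variants, against 34.5% of all 27025 genes of the table. TATAAA stood in 29 clustered genes (46.8%) and 1 variant, against 13.0% of all genes. ATTTGCAT, the octamer bound by Oct-1, stood in 13 clustered genes (20.97%), all of them H2A or H2B genes, and 1 variant, against 1.61% of all genes. Head-to-head genes share most of this sequence, so the counts are not independent. Hist1h2ac itself had all 3 motifs and, over the 476 bases quantified, was at or near 0 in both libraries.

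**Figure D4:**
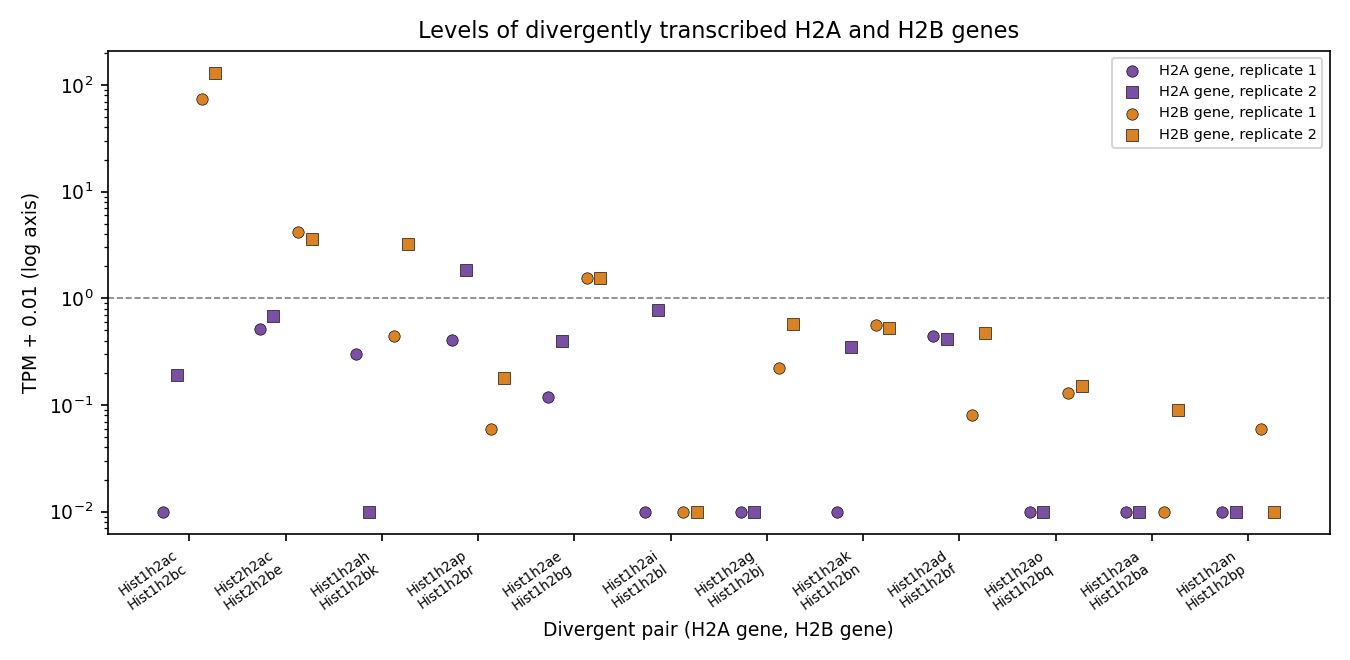
TPM plus 0.01, on a log axis, of the H2A gene (left) and H2B gene (right) of 12 head-to-head pairs, with replicate 1 as circles, replicate 2 as squares and a dashed line at 1 TPM. In 3 pairs the H2B gene lies above 1 TPM in both libraries, and no H2A gene does.

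Between the libraries, clustered genes were more often lower than higher in replicate 1. A gene was called when an exact binomial test of its TMM-scaled counts, adjusted by the Benjamini-Hochberg method over 16145 genes with at least 20 counts in all, had an adjusted p of at most 0.05 and a fold of at least 2. Of all tested genes 11.8% were called, 3.57% higher and 8.21% lower in replicate 1. Of 29 tested clustered genes 1 was higher and 9 were lower in replicate 1, and of 10 tested variants none was higher and 2 were lower. With at least 100 counts asked for, 3 of the 20 genes of the set then tested were called, against 6.98% of all genes then tested. They were H2afj and the pair Hist2h2aa1 and Hist2h2aa2, whose separate values are uncertain. The median log2 ratio, replicate 1 over replicate 2, was -0.54 for the clustered genes tested, -0.15 for variants and 0.02 for all tested genes. A gene with few counts in replicate 1 reached 20 counts only through replicate 2, so these counts describe the genes that passed and not all 64. The test compares these 2 libraries and has no replicate check.

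The clustered genes with the most counts among those called were the H2A pair. Hist2h2aa1 had 526 counts in replicate 1, against 1805 in replicate 2, a log2 ratio of -1.52 (adjusted p = 2.88e-116, exact binomial test). Hist2h2aa2 had 218 and 735 counts, a log2 ratio of -1.497 (adjusted p = 1.09e-46, exact binomial test). Taken as 1 gene, an alternative added once the data had been seen, they had 744 and 2540 counts and were 2.86-fold lower in replicate 1. The TPM of Hist2h2aa1 was 2.05 times that of Hist2h2aa2 in replicate 1 and 2.09 times in replicate 2.

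The other clustered genes called lower in replicate 1 had few counts. The H4 gene Hist1h4c had 19 counts in replicate 1, against 67 in replicate 2, a log2 ratio of -1.56 (adjusted p = 2.39e-05, exact binomial test). The H2B gene Hist1h2bk had 7.33 and 59.3 counts and the H3 gene Hist2h3b 5.82 and 53.2 counts, with log2 ratios of -2.82 and -2.89. Hist1h4n had 8.59 and 35.7 counts, Hist1h2ap 7 and 34.3 counts and Hist3h2ba 6 and 21.5 counts, with log2 ratios of -1.74, -2.02 and -1.62. Hist1h4k had 1.04 counts in replicate 1, against 19.5 in replicate 2, and the 95% counting interval of its ratio was 0.001 to 0.373. The posterior standard deviation that the authors deposited with each count is given for the 5 genes with the largest share in either library among those of the set with at least 20 counts over both libraries. It was 48.9% of the count for Hist1h4n, 39.4% for Hist1h2bk and 29.9% for Hist2h3b in replicate 1. For Hist1h2bq it was 29.6% and 37.1% of 14.7 and 17.9 counts, and for Hist1h3g 28.9% and 24.3% of 10.5 and 11.7 counts, and neither was called.

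Hist4h4, an H4 gene with a long 3′ untranslated region, was the clustered gene called higher in replicate 1, with 32 and 15 counts and a log2 ratio of 1.35 (adjusted p = 0.00531, exact binomial test), but its level was only 0.19 and 0.09 TPM. Among variants H2afj had 414 counts in replicate 1, against 1200 in replicate 2, a log2 ratio of -1.28 (adjusted p = 7.02e-60, exact binomial test). H1fx had 18 and 51 counts, a log2 ratio of -1.25 (adjusted p = 0.00249, exact binomial test). The other 8 variants had log2 ratios from -0.59, for H2afx, to 0.21, for H3f3b.

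GC content, the share of G and C bases, moved with the ratio between libraries. Over all tested genes in 20 bins of GC content, the median log2 ratio was 0.61 in the bin around 39.8% and -0.59 in the bin around 61.1%. For genes of GC content beyond the highest bin's median the correction stayed at that bin's value, so the trend may be removed only in part. Hist2h2aa1, Hist2h2aa2, Hist2h3b, Hist1h4k, Hist1h2ap and H1fx were such genes. With the trend so subtracted, 7 of 39 tested genes of the set were called in place of 12, all of them clustered and lower in replicate 1. Of all tested genes 9.19% were then called in either direction and 7.11% were lower in replicate 1. Calls ended for Hist2h2aa1 (log2 ratio -0.94), Hist2h2aa2 (-0.91), Hist3h2ba (-1.26, adjusted p = 0.115 in the exact binomial test), Hist4h4 (0.90), H2afj (-0.83) and H1fx (-0.66), and Hist3h2a (-1.06) was called. The median log2 ratio was then -0.45 for clustered genes and -0.06 for variants. The calls also move with the airway, red cell, leukocyte and adipocyte markers given above, all higher in replicate 2, and the part of these cells in the calls was not tested.

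**Figure D5:**
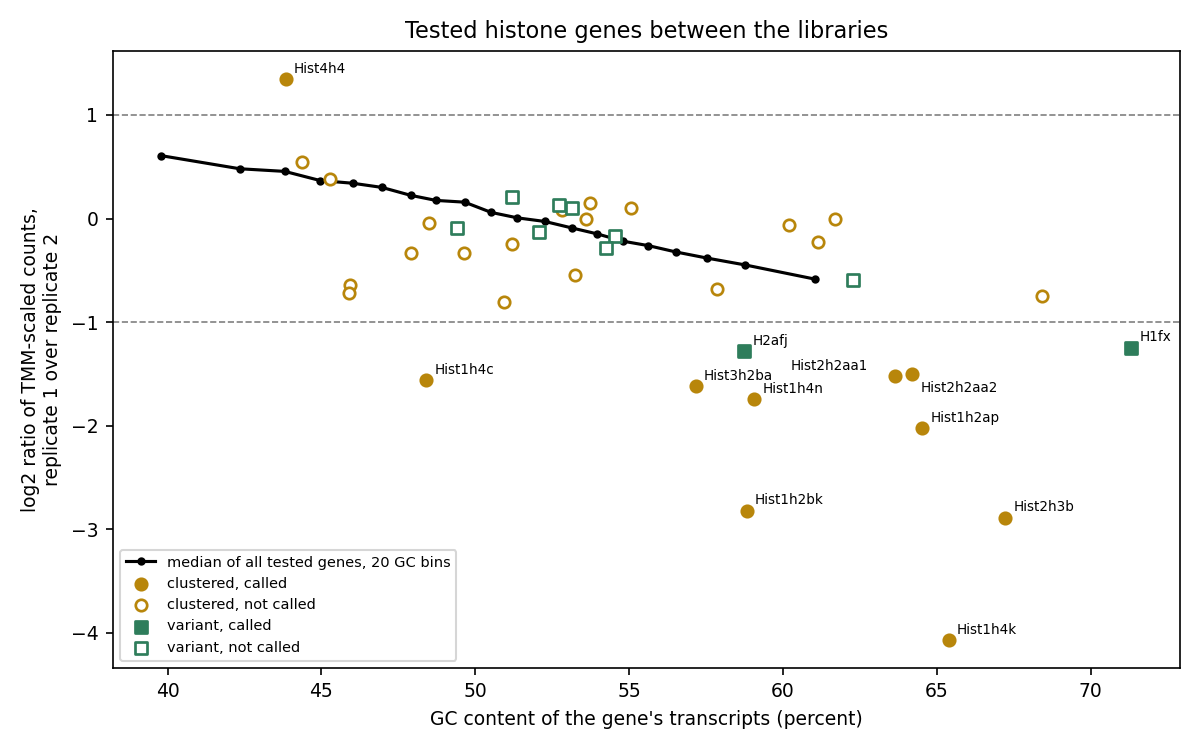
Log2 ratio of TMM-scaled counts, replicate 1 over replicate 2, against GC content in percent, for 29 clustered genes (circles) and 10 variants (squares) that were tested, filled where called, with dashed lines at a fold of 2. The black line is the median of all tested genes in 20 GC bins, from 0.61 at the lowest to -0.59 at the highest GC content, and 11 of the 12 called genes have ratios below -1.

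The genes that make and handle histones were compared for context. Of 26 gene symbols listed for the processing of histone pre-mRNA and for cleavage at poly(A) sites, 23 had a row, 19 were at 1 TPM or more in both libraries and 0 of 22 tested were called, against 11.8% of all tested genes. The median log2 ratio of those 22 was 0.30, with 16 ratios above and 6 below those of equal levels. With the GC trend subtracted the median was 0.095. With no limit on the fold 18 of them, in both directions, were past the adjusted p of the exact binomial test, against 67.8% of all tested genes. The list holds Slirp, a mitochondrial RNA-binding protein with no known part in this processing, at 17.1 and 17.0 TPM. Without it, an alternative added once the data had been seen, 22 had a row, 18 were at 1 TPM or more in both libraries, 0 of 21 tested were called and the median log2 ratio was 0.31. Slbp, the stem-loop binding protein, stood at 4.51 TPM in replicate 1 and at 4.48 TPM in replicate 2. The highest of the others were Sympk, a scaffold of the cleavage complex, at 19.2 and 32.8 TPM, Lsm10, a subunit of the U7 particle, at 11.8 and 17.6 TPM, and Cpsf1 at 10.8 and 12.7 TPM. Lsm11, the other subunit particular to U7 particles, was at 1.33 and 1.04 TPM, and Zfp473, a U7-associated zinc finger protein, had 3 and 8 counts.

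Histone chaperones and exchange factors were mostly detected, 21 of 23, and of the 23 tested none was called higher and 2 lower in replicate 1, against 3.57% higher and 8.21% lower of all tested genes. With no limit on the fold 20 of them were past the adjusted p, against 67.8% of all tested genes. The 2 called were Hjurp, the chaperone of the centromeric H3, with 812 counts in replicate 1 and 2760 in replicate 2, and Chaf1b, a subunit of the replication-coupled assembly factor, with 14 and 36 counts. The highest were Tonsl at 69.6 and 84.8 TPM, Nap1l4 at 48.0 and 49.1 TPM, Ipo4 at 25.2 and 37.3 TPM and Znhit1 at 18.7 and 30.9 TPM. For deposition of H3.3, Hira stood at 6.74 and 7.78 TPM, Atrx at 7.10 and 9.48 TPM and Daxx at 6.10 and 10.9 TPM. Of the replication-coupled assembly factor, Chaf1a stood at 0.34 TPM in both and Chaf1b at 0.14 and 0.29 TPM. These genes do not stand for all other chaperones of the list. Asf1a stood at 2.55 and 1.84 TPM, Nasp at 2.46 and 1.60 TPM and Asf1b at 1.28 and 1.18 TPM.

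Genes of DNA replication and S phase, the phase in which clustered histone genes are known to be active, were low. Of 33, 13 were at 1 TPM or more in both libraries, and together they summed to 43.6 TPM in replicate 1 and 48.5 TPM in replicate 2. The highest were Pcna, the sliding clamp, at 12.5 and 13.7 TPM, Mcm7 at 3.43 and 4.51 TPM, Rrm1 at 2.67 and 2.19 TPM and Mcm3 at 2.61 and 1.87 TPM. Of the list 3 were higher in replicate 1 and none lower, against 3.57% higher and 8.21% lower of all tested genes. Cdk1 had 54 and 25 counts, Ccne2 39 and 15 counts and Top2a 46 and 23 counts. Of the 29 clustered genes tested 1 was called higher and 9 lower in replicate 1, and the difference between the lists was not tested. The median GC content was 48.0% for the S phase list and 53.7% for the clustered genes tested. With the GC trend subtracted, the median log2 ratio went from 0.06 to 0.03 for the S phase list and from -0.54 to -0.45 for clustered genes.

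RNAs that carry no poly(A) tail were also present in the libraries. Rn7sk, the 7SK RNA, stood at 3706 TPM in replicate 1 and at 2859 TPM in replicate 2. Rn7s1 and Rn7s2, near-identical copies of the 7SL RNA, each stood at 1908 and 1970 TPM. Scarna2 stood at 162 and 260 TPM and Rpph1, the RNA of ribonuclease P, at 119 and 122 TPM. None of the 5 tested was called, against 11.8% of all tested genes, and with no limit on the fold 2 were past the adjusted p, against 67.8%. Of the 13 listed RNAs with a row 5 were at 0 in both libraries.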

How the data were processed

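The authors deposited a gene table and a transcript table for each library, on mm10 with GENCODE M4, per the notes deposited beside them. The program used for alignment was not given in the sources used here, nor was the one used for quantification. Expected counts, as deposited, are estimates and need not be whole, per the file headers. The deposited TPM and FPKM values divide counts by effective length, and FPKM was used only as an alternative. The percent that each transcript holds of its gene comes from the authors' transcript tables. Lengths and the posterior standard deviation of each count were also read from the deposited tables. Junction and contig lists on mm9 were not used.

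Of 43346 gene identifiers 42462 (98.0%) matched GENCODE M21, the source of symbols, coordinates, GC content and transcript sequences. Spike-in entries (97, with 1.65% and 1.72% of counts) and 26248 numbered entries with no count stayed out. Groups and replicate numbers follow the labels. The genes of the set and all lists were chosen with earlier results of these data known. Named genes were all variants, the 20 clustered genes of highest mean TPM, every called gene of the set, up to 4 genes of highest mean TPM per list, genes next to the detection limit and the 5 genes with the largest relative posterior standard deviation among those with at least 20 counts. Other named genes (genes at 0, members of head-to-head pairs, Hist1h1e, Slbp, Lsm11, Zfp473, Hira, Atrx, Daxx, Chaf1a, Asf1a, Nasp, Asf1b and called list genes) were chosen after their values were seen.

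Counts were rounded for TMM factors (0.957 and 1.04, edgeR 4.0.16) and, as an alternative, DESeq2 1.42.0 size factors. With 1 library on each side, edgeR's quasi-likelihood test has no residual degrees of freedom, so an exact two-sided binomial test with Benjamini-Hochberg adjustment was used. P-values cover counting error between these 2 libraries only, not the spread between animals. Tested on simulated data for replicate 1 over replicate 2 (16133 genes), the binomial test called 98% of genes changed by 1.5 and 100% of those changed by 2 on the log2 scale, and 0% of unchanged genes. The simulated counts held Poisson counting error only, with no spread between animals and no GC trend. These shares are therefore not error rates for the 2 real libraries. Python 3.11.15, pandas 2.3.3, scipy 1.17.1, matplotlib 3.10.9 and R 4.3.3 were used.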

Additional observations from a re-analysis of the deposited data

How the results depend on the processing

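With TPM rescaled without mitochondrial, red cell and airway genes (47.3% and 40.4% of TPM left out), an alternative added once the data had been seen, the mean of the library medians was 0.685 TPM for clustered genes and 34.3 TPM for variants, against 0.393 and 19.3. The clustered share of histone signal, 47.0% by TPM, was 37.6% by expected counts and 35.6% without Hist1h2bc. It counts the H2B and H4 families, which hold no variant gene in the set. Of 64 clustered genes 14 were detected, 37 at a TPM of at least 0.1 and 22 at no fewer than 10 counts. Leaving out each library in turn gave medians of 0.245 to 0.540 TPM for clustered genes and 17.0 to 21.6 TPM for variants, shares of 41.0% to 53.0% and 14 to 20 detected clustered genes. Between libraries, 1901 of 16145 tested genes and 12 of 39 tested genes of the set were called. With at least 100 counts these were 928 of 13297 and 3 of 20. With no fold limit they were 10941 of 16145 and 25 of 39, and after GC correction 1484 of 16145 and 7 of 39. Scaling by total gene counts moved the median log2 ratio of all tested genes to -0.11 (0.02 with TMM) and reversed H3f3a (-0.022), Hist1h1c (-0.027) and Hist1h4i (-0.042), none of which was called. GC correction reversed H2afy (0.026), Hist2h3c2 (0.47), Hist1h3g (0.58), Hist2h2ac (0.36) and Hist1h2bq (0.11), none called either way. The cause was not tested. With DESeq2 size factors all 39 tested genes of the set kept their direction and call. Calls lower in replicate 1 were 69.7% of all calls, 77.4% after GC correction and 48.6% with no fold limit. Depth limits the 35 clustered genes with fewer than 20 counts in all, for which no test was made. No paired analysis was possible because the libraries form 1 group.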
